A study of Mus musculus with 6 samples.

Results

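The TCA cycle and branched-chain amino acid oxidation genes are 42 genes for the pyruvate dehydrogenase complex and its regulators, the TCA cycle, the breakdown of leucine, isoleucine and valine, propionate oxidation, the aspartate shuttle and glutamate dehydrogenase. The members were chosen by symbol, and every probe set annotated to a single one of them was taken, which gave 92 of 45101 probe sets. Of these, 82 passed the filter on low values, and all 42 genes were among the 13634 genes tested. Expression was measured on Affymetrix arrays in whole hearts of 8-week-old mice, 1 array per mouse, with 3 DNMTs-Tg mice (replicates 1, 5 and 6) and 3 wild-type mice (replicates 1, 4 and 6). DNMTs-Tg mice express the shorter DNMT3A isoform DNMT3A2, which methylates unmethylated DNA, together with its cofactor DNMT3L in a broad range of somatic cells. They came from Ddx4-cre transgenic FVB females crossed with floxed males, and the promoter that drives the 2 transgenes is not given in the sources used here. The study looked for heart genes silenced by the added methyltransferases. DNA methylation was not analysed here.

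Pyruvate dehydrogenase turns pyruvate into acetyl-CoA inside the mitochondrion, its kinases switch it off and its phosphatases switch it on. The TCA cycle burns the acetyl group and passes the electrons to the respiratory chain. Leucine, isoleucine and valine share a transaminase and a dehydrogenase complex and then part into separate arms, of which those of isoleucine and valine yield propionyl-CoA, which enters the cycle as succinyl-CoA. In the heart these pathways run in cardiomyocytes, which are packed with mitochondria. Fewer cardiomyocytes in a sample and less of an RNA per cardiomyocyte cannot be told apart in whole tissue.

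Median log2 signals per array lay between 5.28 and 5.33. The transgene product Dnmt3l lay at 12.19 to 12.38 (log2 signal) on the DNMTs-Tg arrays, against 5.17 to 5.48 on the wild-type arrays. Sex-linked RNA went against the labels on 4 arrays. The labels give female for all arrays but wild-type replicate 6, whereas the Y-linked Eif2s3y lay at 9.41 to 9.52 on all 3 DNMTs-Tg arrays, against 9.50 and 9.51 on wild-type replicates 1 and 6 and 3.32 on wild-type replicate 4. The X-linked members Pdha1 and Idh3g did not set wild-type replicate 4 apart from the other wild-type arrays. The DNMTs-Tg arrays were unlike each other. On the first principal component, with 64% of the variance, they lay at -53.0 (replicate 1), -21.1 (replicate 5) and -4.34 (replicate 6), against 24.6 to 27.8 on the wild-type arrays, so results are also given without single arrays. The signal of the Gapdh control probe sets was 0.53 to 0.75 log2 units higher at the 3′ than at the 5′ end on the DNMTs-Tg arrays, against 0.40 to 0.50 on the wild-type arrays, which is a measure of RNA quality. The same difference for Actb was 0.91 to 1.40 on the DNMTs-Tg arrays, against 1.09 to 1.25 on the wild-type arrays. The part of RNA quality in the results below was not tested.

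Most of the 42 genes were lower in DNMTs-Tg than in wild-type hearts by a modest amount, and none passed the test. Differences are log2 signal in DNMTs-Tg minus wild-type hearts throughout. The difference was below 0 for 37 of the 42 members (88.1%), against 49.2% of all genes tested, and its median over the members was -0.32, against 0.01 over all genes. The 3 DNMTs-Tg arrays all lay below the 3 wild-type arrays for 26 members (61.9%), against 17.6% of all genes. They all lay above for 1 member, Glud1, against 17.3% of all genes. The groups overlapped for the other 15 members.

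With limma and Benjamini-Hochberg adjustment over all 13634 genes, 0 of 42 members had an adjusted p under 0.05, against 5.39% of all genes. At an unadjusted p under 0.05 there were 19 members (45.2%), all of them lower, against 26.0% of all genes. At an adjusted p under 0.10 there were 10 members (23.8%), against 12.1% of all genes. These 10, in order of p, were Mcee, Ivd, Pdp1, Bcat2, Pccb, Pdhx, Aldh6a1, Pdk2, Acadsb and Mccc2. Of the 10, 6 belong to the branched-chain arms or to propionate oxidation, Bcat2 opens branched-chain breakdown, and 3 belong to pyruvate dehydrogenase or its regulators.

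The DNMTs-Tg arrays differed in how low the members were. Relative to the wild-type mean of each gene, the median member lay at -0.58 on DNMTs-Tg replicate 1, -0.21 on replicate 5 and -0.14 on replicate 6, against -0.02 to 0.02 on the wild-type arrays. DNMTs-Tg replicate 1 was the lowest of the 3 DNMTs-Tg arrays for 39 of 42 members, and below every wild-type array for 39. Replicate 5 was below every wild-type array for 31 members and replicate 6 for 29. The shares of all genes were not counted for single arrays, so these counts do not set the members apart from other genes. Without replicate 1 the median difference was -0.18, and 34 members lay below 0. The remaining DNMTs-Tg arrays all lay below the wild-type arrays for 26 members. Groups with fewer arrays separate more easily, so this count cannot be set against that on all arrays. Of the 37 members below 0, 20 came closer to 0 by more than 1.5 times without replicate 1, 3 turned above 0 (Dlst, Suclg2 and Mccc1) and 14 did neither.

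The number of members past the threshold turned on which array was left out. Without DNMTs-Tg replicate 1, 5 members passed (adjusted p under 0.05), namely Bcat2, Dbt, Ivd, Aldh6a1 and Mcee, all lower, against 7.83% of all genes in that fit. Without DNMTs-Tg replicate 6, 10 members passed, all lower, against 11.8% of all genes. Those 10 were Pdk2, Pdp1, Suclg1, Dbt, Ivd, Mccc2, Acadsb, Aldh6a1, Pccb and Mcee. No member passed without DNMTs-Tg replicate 5, against 1.04% of all genes. None passed without any 1 of the wild-type arrays either, against 0.902% to 1.48% of all genes. With shares this low, these fits do not set the members apart from other genes.

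**Figure D1:**
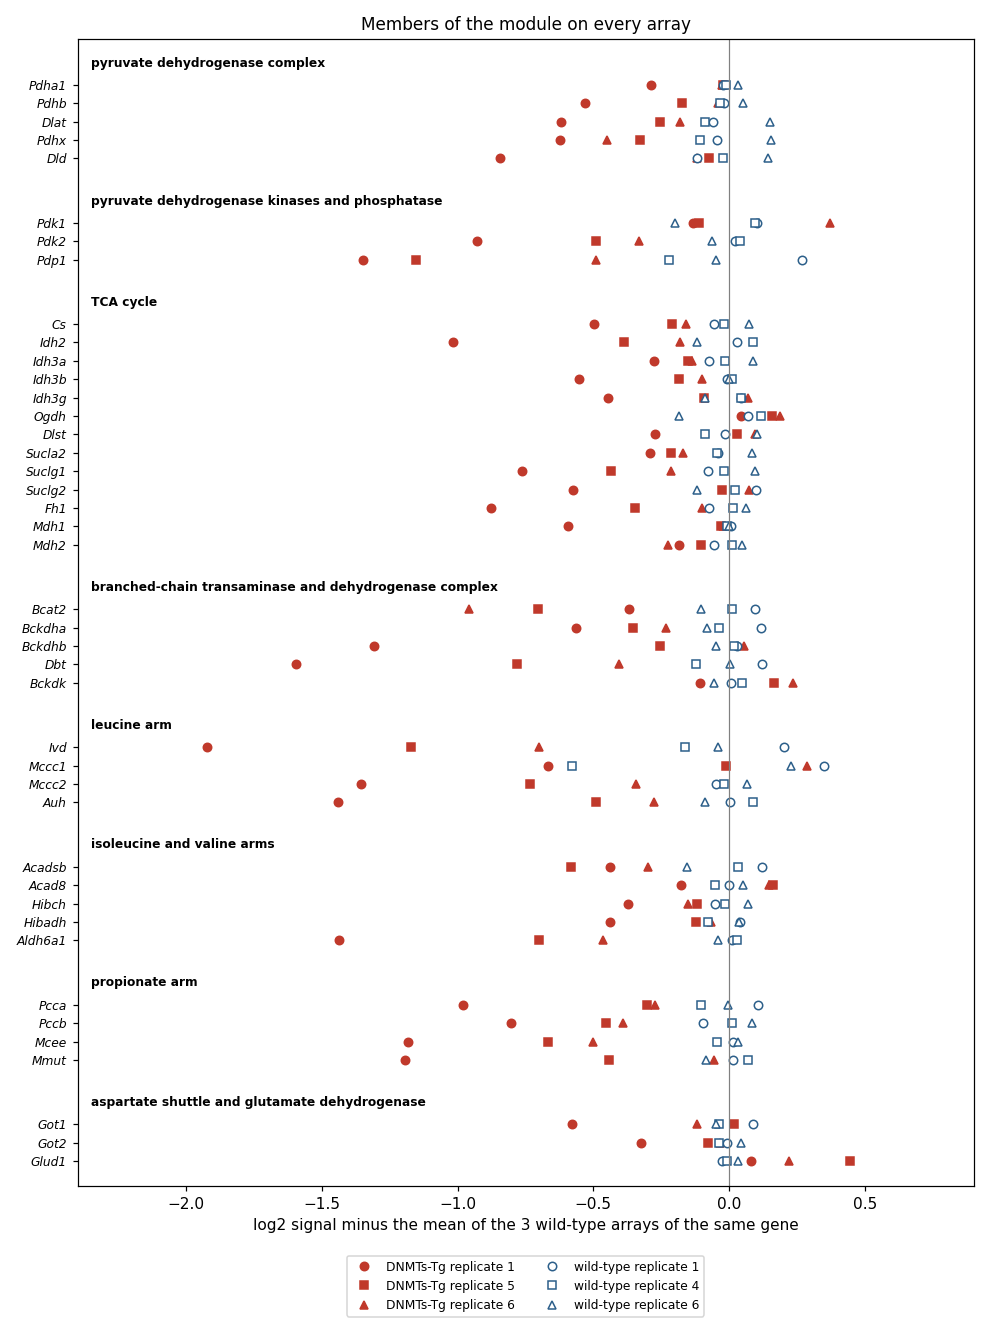
Log2 signal of each of the 42 members on each array, relative to the mean of the 3 wild-type arrays of the same gene (horizontal axis), with members grouped by role down the page. Filled red symbols are DNMTs-Tg arrays (replicates 1, 5 and 6) and open blue symbols wild-type arrays (replicates 1, 4 and 6). For 26 members every filled symbol lies left of every open one, and DNMTs-Tg replicate 1 is the lowest DNMTs-Tg array for 39.

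The pyruvate dehydrogenase complex was lower in all 5 members measured. The median difference was -0.35, and the groups did not overlap for Pdhb, Dlat and Pdhx. Pdhx, which encodes the protein that tethers the dihydrolipoamide dehydrogenase to the core of the complex, had log2 signals of 9.78, 10.08 and 9.95 in DNMTs-Tg hearts, against 10.36, 10.30 and 10.56 in wild-type hearts. The groups did not overlap, and their SDs were alike, at 0.15 and 0.14 (n = 3 each). The difference was -0.47 ± 0.12 (SE, n = 3 per group, limma adjusted p = 0.0706), and -0.39 without DNMTs-Tg replicate 1. Dlat, the acetyltransferase core, was lower by a similar amount on each of its 3 probe sets, at -0.35, -0.34 and -0.46, and the first of these was -0.22 without replicate 1. Dld, the dihydrolipoamide dehydrogenase that the pyruvate, alpha-ketoglutarate and branched-chain complexes share, had 10.73, 11.50 and 11.45 in DNMTs-Tg hearts, against 11.46, 11.55 and 11.72 in wild-type hearts. Its difference of -0.35 (adjusted p = 0.334) rested on replicate 1 and was -0.10 without it. Pdha1, the catalytic alpha subunit, differed by -0.11, and Pdhb, the beta subunit, by -0.25, against -0.02 and -0.11 without replicate 1. The second probe set of Pdha1 was lower without overlap, by 0.36 on the log2 scale (adjusted p = 0.149), and that of Pdhb differed by 0.05.

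The genes that regulate the complex did not move as one. Pdp1, the phosphatase that switches pyruvate dehydrogenase on, had log2 signals of 7.47, 7.66 and 8.33 in DNMTs-Tg hearts, against 9.09, 8.60 and 8.77 in wild-type hearts. The groups did not overlap, and the difference of -0.997 ± 0.24 (SE, adjusted p = 0.0599) is a 2.00-fold lower signal. Its second probe set had 7.72, 7.99 and 7.77 in DNMTs-Tg hearts, against 8.63, 8.33 and 8.50 in wild-type hearts. That probe set was lower by 0.66 on the log2 scale and passed the threshold when every probe set was tested on its own (adjusted p = 0.0474). In that test, 2 of the 92 member probe sets passed, against 2.72% of all 34945 probe sets with 1 symbol. Pdp1 had no adjusted p under 0.05 on this probe set in any of the 6 fits that left out 1 array, where it ranged between 0.0529 and 0.200.

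The other probe set that passed was of Pdk1, a kinase that switches the complex off, and it was higher. Its log2 signal was 10.47, 9.996 and 10.02 in DNMTs-Tg hearts, against 9.30, 9.29 and 9.15 in wild-type hearts. All 3 DNMTs-Tg arrays lay well above the wild-type arrays, by 0.91 ± 0.15 (SE, adjusted p = 0.0249), a 1.89-fold higher signal. It kept an adjusted p under 0.05 without DNMTs-Tg replicate 1 and without DNMTs-Tg replicate 6, but not in the other 4 fits, where the adjusted p reached 0.117. When genes were tested without those same arrays, only 0.902% to 1.48% of all genes passed. A further Pdk1 probe set was also higher without overlap, by 0.43 (adjusted p = 0.139). The brightest probe set, which stands for the gene in the counts above, had 11.52, 11.54 and 12.02 in DNMTs-Tg hearts, against 11.76, 11.75 and 11.46 in wild-type hearts. It differed by only 0.04, with overlapping groups, so the 3 probe sets of Pdk1 gave different answers. Pdk2, another kinase of the complex, was lower, with 8.90, 9.34 and 9.50 in DNMTs-Tg hearts, against 9.85, 9.87 and 9.76 in wild-type hearts. The difference was -0.58 ± 0.16 (SE, adjusted p = 0.0815), without overlap.

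**Figure D2:**
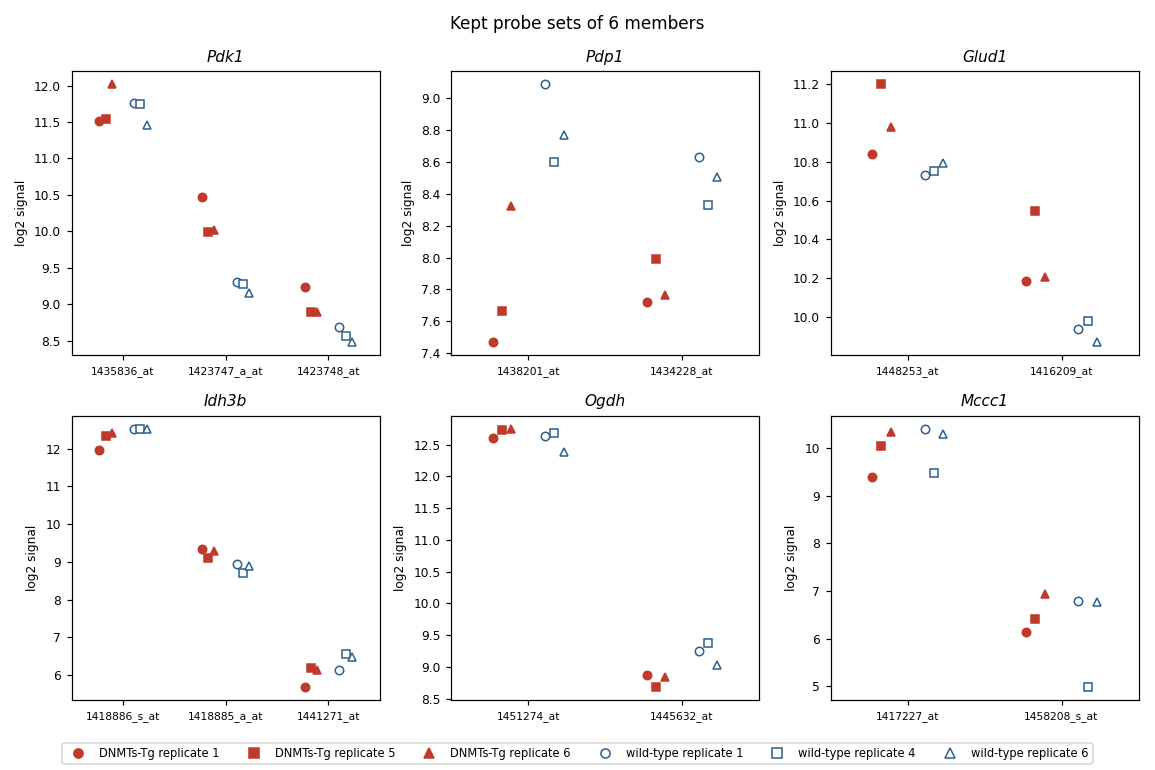
Log2 signal (vertical axis) of each kept probe set (horizontal axis) of Pdk1, Pdp1, Glud1, Idh3b, Ogdh and Mccc1, 6 members chosen after their values were seen. Filled red symbols are DNMTs-Tg arrays and open blue symbols wild-type arrays, with circle, square and triangle for replicates 1, 5 and 6 of DNMTs-Tg and 1, 4 and 6 of wild-type. The Pdk1 probe set in the middle separates the groups upward by 0.91, whereas its brightest probe set does not separate them.

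Of the 13 TCA cycle genes, 12 lay below 0 (92.3%, against 49.2% of all genes) and 9 were lower without overlap (69.2%, against 17.6%), with a median difference of -0.22. Citrate synthase (Cs), which joins acetyl-CoA to oxaloacetate, had log2 signals of 13.19, 13.48 and 13.53 in DNMTs-Tg hearts, against 13.63, 13.67 and 13.76 in wild-type hearts. The groups did not overlap, and the difference of -0.29 (adjusted p = 0.150) is a 1.22-fold lower signal. It was -0.19 without DNMTs-Tg replicate 1.

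Suclg1, the alpha subunit of succinyl-CoA ligase, had 11.82, 12.15 and 12.37 in DNMTs-Tg hearts, against 12.51, 12.57 and 12.68 in wild-type hearts. Its difference was -0.47 ± 0.14 (SE, adjusted p = 0.104), without overlap. The ligase's beta subunits differed by -0.23 for Sucla2, the ATP-forming one, without overlap, and by -0.18 for Suclg2, the GTP-forming one, with overlap. Suclg2 was 0.02 above wild-type without DNMTs-Tg replicate 1. Idh2, the NADP-dependent mitochondrial isocitrate dehydrogenase, differed by -0.53 (adjusted p = 0.165) and fumarase (Fh1) by -0.44 (adjusted p = 0.194), both without overlap. Without DNMTs-Tg replicate 1 they differed by -0.28 and -0.22. The NAD-dependent isocitrate dehydrogenase subunits differed by -0.19 for Idh3a, -0.28 for Idh3b and -0.16 for Idh3g, and by -0.14, -0.14 and -0.01 without replicate 1.

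Malate dehydrogenase was lower by 0.17 on the log2 scale for Mdh2, the mitochondrial enzyme, and by 0.22 for Mdh1, the cytosolic one, each without overlap. Without DNMTs-Tg replicate 1 the Mdh1 difference was -0.03, and 2 further Mdh1 probe sets were at -0.08 and -0.11 on all arrays. The alpha-ketoglutarate dehydrogenase complex differed little. Ogdh, its first enzyme, was the 1 cycle gene above 0, at 0.13, and Dlst, its succinyltransferase core, lay at -0.05. Probe sets of several cycle genes went different ways. A second Idh3b probe set was higher without overlap, by 0.40 (adjusted p = 0.128), and a second Ogdh probe set was lower without overlap, by 0.42 on the log2 scale (adjusted p = 0.133). Among all members, the kept probe sets differed in sign for 9, namely Pdhb, Idh2, Idh3b, Ogdh, Dlst, Mdh1, Mccc1, Auh and Acad8. A single probe set was kept for 15 members, and 64 of the 82 kept probe sets lay below 0.

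Over the 18 branched-chain and propionate members, 16 lay below 0, 12 were lower without overlap (66.7%, against 17.6% of all genes), and the median difference was -0.54. Over the 21 pyruvate dehydrogenase, regulator and TCA members, 19 lay below 0, 14 were lower without overlap (also 66.7%), and the median was -0.25. By arm, the branched-chain and propionate medians were -0.50 for the transaminase and dehydrogenase complex, -0.77 for leucine, -0.21 for isoleucine and valine and -0.56 for propionate, so that of isoleucine and valine was at the level of the TCA cycle's. Relative to wild-type, the median branched-chain or propionate member lay at -0.89, -0.45 and -0.28 on DNMTs-Tg replicates 1, 5 and 6, and the median pyruvate dehydrogenase or TCA member at -0.55, -0.17 and -0.12. No test was made between these sets of genes. The sets also differ in brightness. Mean wild-type log2 signals lay between 11.78 (Suclg2) and 13.90 (Mdh2) for the TCA cycle genes. For branched-chain and propionate genes they lay between 7.12 (Bcat2) and 12.28 (Hibadh). The part of brightness in the contrast was not tested.

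The first steps of branched-chain breakdown were lower except for their kinase. Bcat2, the mitochondrial branched-chain aminotransferase that removes the amino group, had log2 signals of 6.76, 6.42 and 6.17 in DNMTs-Tg hearts, against 7.22, 7.14 and 7.02 in wild-type hearts. The groups did not overlap, and here DNMTs-Tg replicate 6 was the lowest array and replicate 1 the highest of the DNMTs-Tg arrays. The difference was -0.68 ± 0.17 (SE, adjusted p = 0.0635), a 1.60-fold lower signal. Dbt, the acyltransferase core of the branched-chain ketoacid dehydrogenase, had 8.72, 9.53 and 9.91 in DNMTs-Tg hearts, against 10.43, 10.19 and 10.31 in wild-type hearts, a difference of -0.93 ± 0.28 (SE, adjusted p = 0.102) without overlap, and -0.59 without replicate 1. Bckdha, the alpha subunit of the complex, differed by -0.38 (adjusted p = 0.104), also without overlap.

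Bckdhb, the beta subunit, had 9.34, 10.39 and 10.70 in DNMTs-Tg hearts, against 10.68, 10.67 and 10.60 in wild-type hearts. Replicate 6 lay above every wild-type array, and the difference of -0.50 (adjusted p = 0.356) was -0.10 without replicate 1. Bckdk, the kinase that inactivates the complex, had 8.98, 9.25 and 9.32 in DNMTs-Tg hearts, against 9.09, 9.13 and 9.03 in wild-type hearts, a difference of 0.10 (adjusted p = 0.639) with overlap.

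**Figure D3:**
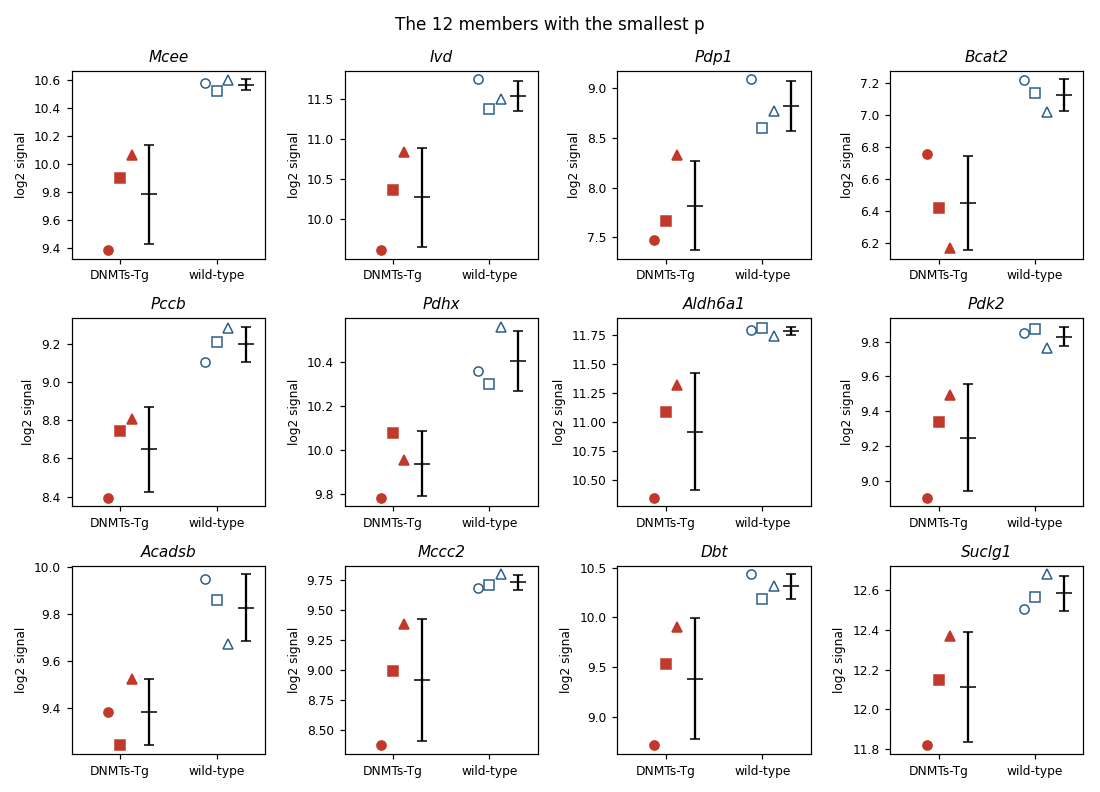
Log2 signal on every array (vertical axis, its own range in each panel) of the 12 members with the smallest p. Filled red symbols are DNMTs-Tg arrays, with circle, square and triangle for replicates 1, 5 and 6, open blue symbols are wild-type arrays, with circle, square and triangle for replicates 1, 4 and 6, and bars are the mean ± SD (n = 3). The groups do not overlap in any panel, and DNMTs-Tg replicate 1 is the lowest array in all panels but those of Bcat2 and Acadsb.

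The leucine arm held the largest difference of the 42 members. Ivd, isovaleryl-CoA dehydrogenase, takes the first step after the shared complex in leucine breakdown, and had log2 signals of 9.62, 10.37 and 10.84 in DNMTs-Tg hearts, against 11.74, 11.38 and 11.50 in wild-type hearts. All DNMTs-Tg arrays lay below the wild-type arrays and were spread over a wider range. The difference was -1.27 ± 0.29 (SE, adjusted p = 0.0537), a 2.40-fold lower signal, and it was -0.94 without DNMTs-Tg replicate 1. Ivd's second probe set was lower too, by 0.57 on the log2 scale without overlap (adjusted p = 0.125). Mccc2, the beta subunit of methylcrotonyl-CoA carboxylase, had 8.37, 8.99 and 9.39 in DNMTs-Tg hearts, against 9.68, 9.71 and 9.80 in wild-type hearts, a difference of -0.81 ± 0.24 (SE, adjusted p = 0.0963), and -0.54 without replicate 1.

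Mccc1, the alpha subunit of the same carboxylase, did not share that pattern. It had 9.39, 10.04 and 10.34 in DNMTs-Tg hearts, against 10.41, 9.48 and 10.28 in wild-type hearts, where replicate 4 was low. The second Mccc1 probe set was low on the same wild-type array, with 6.15, 6.41 and 6.94 in DNMTs-Tg hearts, against 6.79, 4.99 and 6.77 in wild-type hearts. Auh, which hydrates methylglutaconyl-CoA in the following step, differed by -0.74 (adjusted p = 0.161) without overlap, and by -0.38 without DNMTs-Tg replicate 1.

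The promoter of Ivd is shown because the study's question is DNA methylation, which falls on CpG dinucleotides. The RefSeq window (GRCm38.p6, chr2:118861744-118862043, plus strand, 250 bases before to 50 after the start of transcription) holds 11 CpG, in capitals.
Ivd: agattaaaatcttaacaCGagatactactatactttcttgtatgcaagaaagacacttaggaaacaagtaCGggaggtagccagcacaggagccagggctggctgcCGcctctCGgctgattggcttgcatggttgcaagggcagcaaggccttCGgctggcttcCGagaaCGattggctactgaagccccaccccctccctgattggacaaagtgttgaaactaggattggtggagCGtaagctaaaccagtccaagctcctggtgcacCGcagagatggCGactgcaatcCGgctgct

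The isoleucine and valine arms were mixed, with 3 of 5 members lower without overlap and a median of -0.21. Aldh6a1, methylmalonate semialdehyde dehydrogenase, closes the valine arm by forming propionyl-CoA. It had log2 signals of 10.35, 11.09 and 11.32 in DNMTs-Tg hearts, against 11.80, 11.82 and 11.75 in wild-type hearts, a difference of -0.87 ± 0.23 (SE, adjusted p = 0.0780) and a 1.82-fold lower signal. The DNMTs-Tg arrays were spread below a tight group of wild-type arrays. Acadsb, the short/branched-chain acyl-CoA dehydrogenase of the isoleucine arm, had 9.39, 9.24 and 9.53 in DNMTs-Tg hearts, against 9.95, 9.86 and 9.67 in wild-type hearts. Its difference was -0.44 ± 0.12 (SE, adjusted p = 0.0820), and replicate 5, not replicate 1, was the lowest array. Acadsb is represented by a probe set that the platform marks as sharing probes with other transcripts. Of the other valine genes, hydroxyisobutyryl-CoA hydrolase (Hibch) and hydroxyisobutyrate dehydrogenase (Hibadh) differed by -0.21 each, against -0.14 and -0.09 without replicate 1, and isobutyryl-CoA dehydrogenase (Acad8) by 0.04.

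All 4 propionate genes were lower, with a median of -0.56. Mcee, methylmalonyl-CoA epimerase, had the smallest p of the 42 members. Its log2 signals were 9.38, 9.90 and 10.07 in DNMTs-Tg hearts, against 10.58, 10.52 and 10.60 in wild-type hearts, and all DNMTs-Tg arrays lay below the tight wild-type group. The difference was -0.78 ± 0.18 (SE, adjusted p = 0.0508), a 1.72-fold lower signal. Pccb, the beta subunit of propionyl-CoA carboxylase, had 8.39, 8.75 and 8.81 in DNMTs-Tg hearts, against 9.10, 9.21 and 9.28 in wild-type hearts. Its difference was -0.55 ± 0.14 (SE, adjusted p = 0.0655), and that of the alpha subunit Pcca was -0.52 (adjusted p = 0.157), both without overlap. Pcca was at -0.29 without replicate 1. Mmut, the vitamin B12-dependent methylmalonyl-CoA mutase that makes succinyl-CoA (Mut in the member list), had 10.15, 10.91 and 11.29 in DNMTs-Tg hearts, against 11.36, 11.42 and 11.26 in wild-type hearts. On this probe set Mmut differed by -0.56 (adjusted p = 0.225), and by -0.25 without replicate 1, and replicate 6 lay among the wild-type arrays. Further Mmut probe sets were lower without overlap, at -0.68 (adjusted p = 0.153) and -0.80 (adjusted p = 0.173).

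The windows of Mcee (chr7:64392372-64392671, plus strand, 25 CpG) and Pccb (chr9:101034835-101035134, minus strand, 20 CpG) are shown for the same reason, with CpG in capitals. They hold more CpG than that of Ivd.
Mcee: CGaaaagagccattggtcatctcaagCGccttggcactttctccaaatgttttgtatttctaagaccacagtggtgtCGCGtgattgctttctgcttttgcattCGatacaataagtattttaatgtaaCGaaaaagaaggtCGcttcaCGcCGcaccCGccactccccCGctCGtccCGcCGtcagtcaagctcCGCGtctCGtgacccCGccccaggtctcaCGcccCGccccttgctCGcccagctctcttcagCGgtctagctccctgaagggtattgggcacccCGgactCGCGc
Pccb: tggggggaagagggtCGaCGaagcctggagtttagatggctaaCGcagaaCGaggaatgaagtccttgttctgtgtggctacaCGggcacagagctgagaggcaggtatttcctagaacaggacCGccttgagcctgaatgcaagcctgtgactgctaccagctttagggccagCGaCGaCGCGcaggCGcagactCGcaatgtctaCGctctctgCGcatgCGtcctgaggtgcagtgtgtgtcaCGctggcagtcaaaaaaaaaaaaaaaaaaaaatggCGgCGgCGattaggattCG

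Of the 3 aspartate shuttle and glutamate dehydrogenase genes, 1 was higher without overlap. Got1 and Got2, the cytosolic and mitochondrial aspartate aminotransferases of the malate-aspartate shuttle, differed by -0.23 and -0.15 with overlapping groups, and by -0.05 and -0.06 without DNMTs-Tg replicate 1. Glud1, glutamate dehydrogenase, which releases ammonia from glutamate to give alpha-ketoglutarate, was the 1 member whose DNMTs-Tg arrays all lay above the wild-type arrays. It had log2 signals of 10.84, 11.20 and 10.98 in DNMTs-Tg hearts, against 10.73, 10.75 and 10.79 in wild-type hearts, a difference of 0.25 ± 0.11 (SE, adjusted p = 0.216). Its second probe set was higher by 0.38, again without overlap (adjusted p = 0.154). The promoter window of Glud1 (chr14:34310477-34310776, plus strand) is set beside those of the lower genes. It had the most CpG of the member windows, 51.
Glud1: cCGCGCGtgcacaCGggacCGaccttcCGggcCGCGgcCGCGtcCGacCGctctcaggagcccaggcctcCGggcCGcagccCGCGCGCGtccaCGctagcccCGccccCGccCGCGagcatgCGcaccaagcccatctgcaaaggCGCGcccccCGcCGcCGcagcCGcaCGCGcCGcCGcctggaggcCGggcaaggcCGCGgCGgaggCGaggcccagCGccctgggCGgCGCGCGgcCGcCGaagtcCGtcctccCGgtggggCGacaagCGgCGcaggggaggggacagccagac

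RefSeq windows of 300 bases were found for 38 of the 42 members, 49 windows in all, and none was found for Idh3a, Mmut, Pdp1 and Dbt. The member windows held 2 to 51 CpG with a median of 20, against 19 in the windows of genes tested and 7 in all mouse windows. A window was called island-like at a GC content of at least 50% and a ratio of observed to expected CpG of at least 0.6. This held for 36 of 49 member windows (73.5%), against 60.2% for genes tested and 33.5% for all. Of the 10 members with the smallest p, 9 had a window. Every window was island-like for 6 of them (Mcee, Pccb, Pdhx, Pdk2, Acadsb and Mccc2), 1 of 2 windows was for Bcat2, and none was for Ivd, at a ratio of 0.523, and Aldh6a1.

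Motifs of factors that control mitochondrial genes were searched on both strands of these windows. CGCATGCG, the NRF1 motif, was found in 3 member windows (6.1%), against 3.3% of windows of genes tested and 1.9% of all windows. These were the window of Pccb, at -34 from the start, and 2 overlapping windows of Ogdh. The Ogdh windows hold the same site, at -14 and -35 from their starts, so 1 site was counted in both. CCGGAAGT, the ETS motif bound by GABP, was found in 1 window (2.0%), that of Dlst, against 6.9% for genes tested and 3.9% for all. TCAAGGTCA, the ERR motif, was found in none of the member windows, against 0.3% for genes tested and 0.4% for all, and AAGGTCA, which it contains, in 2 (4.1%), those of Ogdh and Got1, against 3.4% for genes tested and 4.7% for all. A match shows only that these letters occur in the window.

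Other genes of these pathways came from 4 lists chosen with earlier results of these data known. Of their 46 genes tested, 3 passed (6.52%, against 5.39% of all genes). An unadjusted p under 0.05 was reached by 16 (34.8%, against 26.0%), and both shares were near those of all genes. The lists leaned downward, as the members did. Below 0 lay 11 of 15 pyruvate and TCA genes and 10 of 12 branched-chain and propionate genes, against 49.2% of all genes. The same held for 7 of 8 shuttle and glutamate genes and 9 of 11 lipoate genes. Lower without overlap were 5, 6, 4 and 4 genes of these lists in turn, against 17.6% of all genes. Of 15 other pyruvate and TCA genes tested, 1 rose and none fell (adjusted p under 0.05), 4 had an unadjusted p under 0.05, and the median was -0.17. The gene that rose was Me2, the mitochondrial NAD-dependent malic enzyme, by 0.68 (adjusted p = 0.0472), with 6.74, 6.68 and 6.28 in DNMTs-Tg hearts, against 5.97, 5.84 and 5.85 in wild-type hearts. Me2 kept the call in 1 of the 6 fits that left out an array, the fit without DNMTs-Tg replicate 6. Of all genes, 11.8% passed in that fit and 7.83% without DNMTs-Tg replicate 1, against 0.902% to 1.48% in the other fits. Calls kept or lost in these fits, here and below, are to be read beside those shares. Pdp2, the other pyruvate dehydrogenase phosphatase, differed in the direction of Pdp1, by -1.28 (adjusted p = 0.111) and without overlap. Pdk4, the kinase that the heart raises in fasting, had 12.64, 12.54 and 13.05 in DNMTs-Tg hearts, against 11.21, 12.43 and 12.95 in wild-type hearts, a difference of 0.55 (adjusted p = 0.428).

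Of 12 other branched-chain and propionate genes tested, none rose, 1 fell, 5 had an unadjusted p under 0.05, and the median was -0.38. Abat, the transaminase for GABA that also acts on a product of valine breakdown, fell by 1.59 on the log2 scale (adjusted p = 0.0289), a 3.01-fold lower signal. It had 6.50, 6.08 and 5.69 in DNMTs-Tg hearts, against 8.00, 7.93 and 7.12 in wild-type hearts, and unlike most members it was lowest in DNMTs-Tg replicate 6. It kept the call in 3 of the 6 fits that left out an array, and the highest adjusted p was 0.122. Ppm1k, the phosphatase that activates the branched-chain ketoacid dehydrogenase, had 9.31, 9.82 and 10.59 in DNMTs-Tg hearts, against 11.23, 11.22 and 10.96 in wild-type hearts, a difference of -1.23 (adjusted p = 0.0608). Mmaa, which helps deliver the B12 cofactor to Mmut, differed by -0.68 (adjusted p = 0.0559), without overlap.

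Of 8 other shuttle and glutamate genes, 1 fell and none rose, 4 had an unadjusted p under 0.05, and the median was -0.37. Slc25a11, the malate/alpha-ketoglutarate carrier of the malate-aspartate shuttle, had 10.79, 11.16 and 11.25 in DNMTs-Tg hearts, against 11.72, 11.73 and 11.76 in wild-type hearts. It fell by 0.67 on the log2 scale (adjusted p = 0.0343), and kept the call in 2 of the 6 fits that left out an array, those without DNMTs-Tg replicate 1 or 6. Of 11 genes for lipoate, the cofactor that the dehydrogenase complexes carry, 0 passed, 3 had an unadjusted p under 0.05 and the median was -0.18. Lipt1, which transfers lipoate to these complexes, differed by -0.38 (adjusted p = 0.0830), and Isca2, an iron-sulfur assembly factor, by -0.45 (adjusted p = 0.136).

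A list of general mitochondrial genes lay closer to 0 in the median than the members, but its genes did not move alike. Of 14 genes of protein import, the outer membrane and related mitochondrial functions, 8 lay below 0, against 49.2% of all genes, with a median of -0.07. At an unadjusted p under 0.05 there were 4, against 26.0% of all genes. Of those 4, Hspd1 and Hspa9 were lower without overlap, at -0.60 and -0.31. Tomm70a and Tomm20 were higher without overlap, at 0.34 and 0.40. The 1 past the threshold, Tomm20, an import receptor, rose by 0.40 (adjusted p = 0.0379), and kept the call in 2 of the 6 fits that left out an array, those without DNMTs-Tg replicate 1 or 6. Of 12 transcriptional and sirtuin regulators of mitochondrial metabolism, 0 passed, and the median was -0.09. An unadjusted p under 0.05 was reached by 0 of them, against 26.0% of all genes. The smallest p among them was that of Ppara, at -0.53 (adjusted p = 0.195), followed by Ppard, at 0.23 (adjusted p = 0.203).

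On average, fibroblast, macrophage, cardiomyocyte and atrial markers were furthest from wild-type on DNMTs-Tg replicate 1, the array on which the members were lowest. Smooth muscle markers were so on replicate 5 and endothelial markers on replicate 6. The 13 cardiomyocyte markers, all measured, averaged -0.19, -0.01 and 0.01 on DNMTs-Tg replicates 1, 5 and 6 relative to wild-type, against -0.01 to 0.01 on the wild-type arrays. Of these markers, 0 passed the test and 3 had an unadjusted p under 0.05, against 26.0% of all genes. Of the 13, 9 lay below 0, against 49.2% of all genes. Lower without overlap were 7, against 17.6% of all genes, and higher without overlap 3, against 17.3%. The cardiomyocyte markers thus leaned downward but did not move alike, and most lie near the top of the arrays' range. Ryr2, the sarcoplasmic calcium release channel and a dimmer marker, had 11.74, 12.29 and 12.70 in DNMTs-Tg hearts, against 12.62, 12.54 and 12.68 in wild-type hearts, while Mybpc3, a thick filament protein, was higher by 0.34 (adjusted p = 0.0606). The 10 fibroblast markers averaged 1.41, 0.39 and 0.19 on the DNMTs-Tg arrays, against -0.22 to 0.26 on the wild-type arrays. Again 0 passed, with 4 at an unadjusted p under 0.05, against 26.0% of all genes. The fibroblast markers did not move alike either. The differences of 8 were above 0, the largest that of Postn at 1.84, while Tcf21 differed by -0.10 with overlap and Dpt by -0.33 without. Of 13 macrophage markers, 12 were measured and averaged 1.38, -0.09 and 0.01 on the DNMTs-Tg arrays, against -0.09 to 0.10 on the wild-type arrays. None of them passed, and 1 had an unadjusted p under 0.05, against 26.0% of all genes. It was Ccr2, a chemokine receptor of monocytes, at 1.44 (adjusted p = 0.0509).

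The 9 endothelial markers averaged 0.05, 0.10 and 0.26 on the DNMTs-Tg arrays, against -0.02 to 0.03 on the wild-type arrays, with 1 past the threshold, Vwf, at 1.39 (adjusted p = 0.0177), which kept the call in 3 of the 6 fits that left out an array. The 5 smooth muscle markers averaged -0.22, -0.60 and -0.39 on the DNMTs-Tg arrays, against -0.25 to 0.13 on the wild-type arrays. The 4 atrial markers averaged 2.36, 1.14 and 0.11 on the DNMTs-Tg arrays, against -0.39 to 0.28 on the wild-type arrays. Among them Sln had 11.25, 6.80 and 4.84 in DNMTs-Tg hearts, against 3.94, 4.21 and 3.56 in wild-type hearts. The other atrial markers differed less, Myl7 by -0.07 and Nppa by 0.86 with overlap, and Myl4 by 0.31 without. Of the markers of adipocytes (1 of 6), blood (2 of 4), lymphocytes (3 of 6) and Schwann or neuronal cells (2 of 5), few were among the genes tested, and none of those passed. The part of other cell types in the members' differences was not tested.

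**Figure D4:**
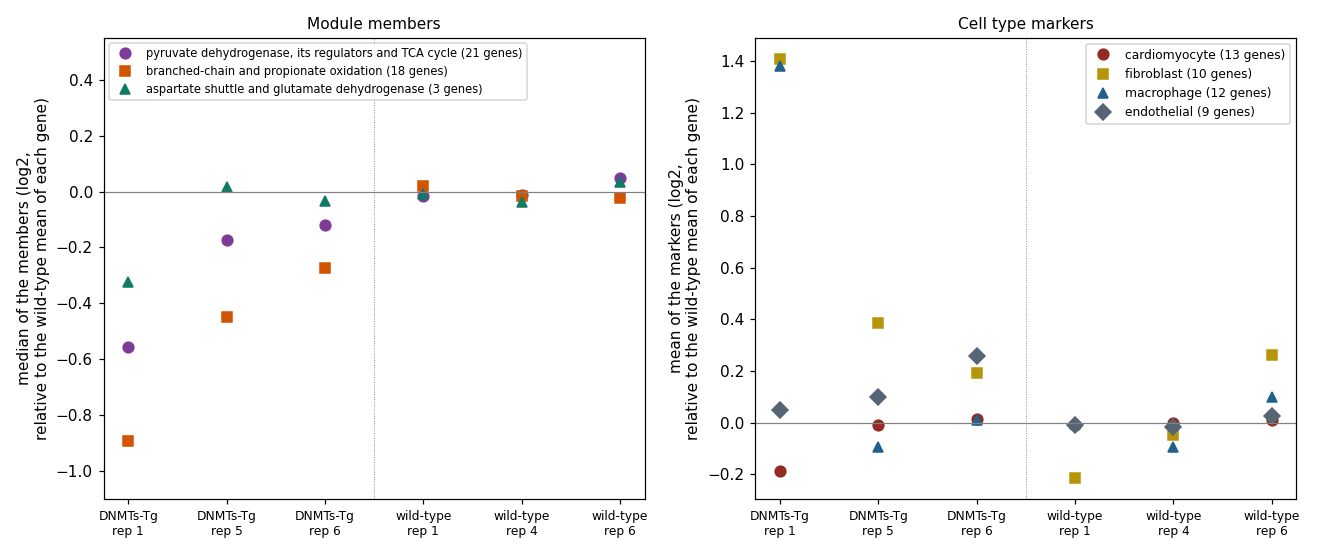
Left, the median log2 signal of the module's 3 main sets of genes on each array, relative to the wild-type mean of each gene. Right, the mean of the cell type markers on the same scale. Branched-chain and propionate genes (squares) lie at -0.89, -0.45 and -0.28 on the DNMTs-Tg arrays and near 0 on the wild-type arrays, and fibroblast and macrophage markers stand at 1.41 and 1.38 on DNMTs-Tg replicate 1.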

How the data were processed

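Hearts of 3 DNMTs-Tg and 3 wild-type mice were measured on Affymetrix arrays, and groups, replicate numbers and age came from the labels. Per the labels' protocols, total RNA from frozen hearts was biotin-labelled by in vitro transcription. The authors deposited 1 log2 signal per probe set and array, between 2.06 and 14.7. The log2 scale was read from that range. The sources used here do not give the software, the normalization or the background correction. There were no detection calls, so a dim probe set may or may not be above background.

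Of 45101 probe sets, 34945 had 1 gene symbol, 932 several and 9211 none in GEO's platform annotation, and the other 13 were control probe sets with a symbol, which were not used. Gene identifiers were used to bring the symbols up to GRCm38.p6. The filter kept probe sets above the 40th percentile of the array on 3 or more of the 6 arrays, and each gene was represented by its kept 1-symbol probe set with the highest mean. The 2-sided test was limma's (version 3.58.1, R 4.3.3, lmFit and eBayes with trend), adjusted by Benjamini-Hochberg over 13634 genes with a threshold of 0.05. Adjusted p-values of single probe sets come from the same model over 34945 probe sets without the filter.

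All members were named, with full statistics for those past the threshold or, as none passed, for the 12 with the smallest p. From each other pathway list the genes past the threshold were named, otherwise the 2 with the smallest p. Pdk4, Ppm1k, Mmaa, Pdp2, Hspd1, Hspa9, Tomm70a, Ryr2, Mybpc3, Postn, Tcf21, Dpt, Ccr2, Sln, Myl7, Myl4 and Nppa were added after their values were seen. So were the values of single probe sets, and the fits of Me2, Abat, Slc25a11, Tomm20, Vwf and the 2 probe sets without single arrays. Some genes of the lists are not reported here. The members and lists were chosen with earlier results of these data known, so no test was made over a list. Promoter windows were shown for the 3 members with the smallest p and exactly 1 window, and for the member above 0 with the smallest p. The fit was tested on simulated data. Precision is limited by having 3 arrays a group, for which the smallest p of an exact permutation test is 0.1. The labels do not say whether mice shared a litter or a day. Alternatives changed the normalization, the filter, the choice of probe set, the variance model, the threshold and the arrays included, and the closing section gives their effect.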

Additional observations from a re-analysis of the deposited data

How the results depend on the processing

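The count of members past the threshold, 0 in the fit described, was 1 after quantile normalization (Bcat2), 1 on a common median (Mcee), 1 with a filter at the 60th percentile (Mcee), 1 with the mean of a gene's kept probe sets (Pdp1, adjusted p = 0.0333), 2 with every probe set on its own and 10 at an adjusted p threshold of 0.10. It was 23 with array weights, which gave 0.203 to DNMTs-Tg replicate 1 and 5.63 to DNMTs-Tg replicate 5 and called 35.4% of all genes, but whose estimation did not fully converge. It ranged between 0 and 10 when 1 array was left out, and stayed at 0 with a filter on the mean, no filter, no probe sets ending in _x_at or _s_at, eBayes without trend or with robust, and a threshold of 0.01. The label number as a replicate block also gave 0 (lowest adjusted p = 0.356, with 1 of 13634 genes called). The numbers did not pair the arrays, since the deviations of the same-numbered arrays correlated at -0.054 for number 1 and -0.08 for number 6. The median difference of the members stayed below 0 in every alternative, between -0.40 and -0.18. The number of members below 0 was 34 to 39, and of those lower without overlap 26 to 31, when 1 array was left out. Groups separate more easily with an array fewer, so the latter counts do not show how firm the count on all arrays is. Signs turned for 7 members, in part with the probe sets used, and other causes were not tested. Pdk1 was -0.0122 after quantile normalization, -0.1108 with array weights and -0.1231 to 0.1296 without single arrays. Acad8 was -0.0112 after quantile normalization, -0.1419 with the mean of probe sets, -0.0414 with the replicate block and -0.015 to 0.154 without single arrays. With the mean of probe sets, Ogdh was -0.1456 and Mccc1 0.0903, each a mean of 2 probe sets that differ in sign. Idh3b, -0.28 without overlap in the fit described, was 0.3961 without probe sets ending in _x_at or _s_at, where its higher probe set stood for the gene. Dlst was 0.0295 with array weights. Without single arrays, Mccc1 was -0.4203 to 0.1377, Dlst -0.1224 to 0.0615 and Suclg2 -0.3015 to 0.0231.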
